A study of Mus musculus with 8 samples.

Results

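A set of 10 genes that mark the epithelial or the mesenchymal state of a cell were followed through RNA sequencing of mouse bile duct and pancreatic duct material. They were chosen by symbol, 10 of the 31228 genes in the deposited expression table, and all 10 were found there. Of these, 3 mark epithelial cells (Cdh1, Epcam, Esrp1), 2 are structural genes of mesenchymal cells (Vim, Cdh2) and 5 encode transcription factors of the epithelial-mesenchymal transition (Snai1, Snai2, Zeb1, Zeb2, Twist1). The study compared the extrahepatic bile duct with the pancreatic duct, and freshly isolated duct material with organoids, which are hollow epithelial cultures grown in a gel matrix. It held 8 libraries from C57BL/6 mice: 1 of extrahepatic bile duct epithelium, 1 of pancreatic duct epithelium, 3 of bile duct organoids and 3 of pancreatic duct organoids. No treatment, transgene or mutant allele is named for any group, and the animals' age and number are not given in the sources used here. Ducts were dissected, minced and digested with collagenase IV, per the labels' protocols. The material called epithelium went into Trizol at that point, with no step named that would separate epithelial cells from the rest of the duct wall. Organoids were grown from such digests in Matrigel with EGF, R-Spondin-1, Noggin, FGF10, nicotinamide and N-acetylcysteine. Wnt3A-conditioned medium and the kinase inhibitor Y27632 were taken out once hollow organoids had formed, and cultures were collected at passage 3 to 4. The labels do not say whether replicate cultures came from separate animals, so each p-value below measures only the spread between these cultures, which may be technical.

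Epithelial cells hold to each other through adherens junctions, in which E-cadherin (Cdh1) reaches from cell to cell and binds catenins inside. In an epithelial-mesenchymal transition cells lose these junctions, build a cytoskeleton that contains the intermediate filament protein vimentin, and often exchange E-cadherin for N-cadherin (Cdh2). The zinc finger proteins of the Snail and Zeb families and the helix-loop-helix protein Twist1 drive the transition. Snail and Zeb proteins bind E-box letters in promoters of epithelial genes such as Cdh1 and repress them, while Esrp1 keeps the epithelial splice forms of many transcripts. The same mesenchymal genes are also expressed by the fibroblasts, muscle cells, endothelium, glia and leukocytes of a duct wall, so that a bulk library reads the mixture of cells as well as the state of each.

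The promoters of the members that carry such letters are shown because the repressors among the members are known to read them, and that of Vim is shown beside them for contrast. In the RefSeq promoter table (GRCm38.p6), 5 of the 10 members were present: Epcam, Vim, Snai1, Zeb2 and Twist1. The window of 250 bases before the transcription start was searched for CACCTG and for CAGGTG, which is the same motif on the other strand, so both strands were covered and no other motif was searched. Each sequence is the sense strand, 5′ to 3′, with the matches in capitals.
Epcam, chr17:87635729-87635978, plus strand: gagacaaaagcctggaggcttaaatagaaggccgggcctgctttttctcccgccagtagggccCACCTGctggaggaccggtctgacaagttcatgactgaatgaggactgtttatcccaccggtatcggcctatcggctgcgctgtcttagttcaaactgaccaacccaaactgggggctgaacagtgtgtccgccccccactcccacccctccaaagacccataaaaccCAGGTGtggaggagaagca
Snai1, chr2:167537945-167538194, plus strand: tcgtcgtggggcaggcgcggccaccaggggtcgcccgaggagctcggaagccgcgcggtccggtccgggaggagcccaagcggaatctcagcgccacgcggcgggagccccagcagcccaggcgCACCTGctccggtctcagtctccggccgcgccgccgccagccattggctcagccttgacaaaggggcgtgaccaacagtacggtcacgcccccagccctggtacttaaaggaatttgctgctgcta
Vim, chr2:13574061-13574310, plus strand: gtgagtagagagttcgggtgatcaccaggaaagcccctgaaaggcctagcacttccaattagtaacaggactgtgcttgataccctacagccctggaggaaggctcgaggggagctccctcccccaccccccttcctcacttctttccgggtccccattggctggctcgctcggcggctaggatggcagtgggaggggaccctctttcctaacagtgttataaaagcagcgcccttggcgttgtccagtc
The Vim window precedes the RefSeq start and lies inside the longer gene model of the expression table, which begins at 13573927. The Epcam window held 2 matches, 1 of CACCTG beginning 187 bases and 1 of CAGGTG beginning 19 bases before the start. The Snai1 window held 1 match, CACCTG beginning 126 bases before the start. The windows of Vim, Twist1 and Zeb2, for which the table gives 4 starts, held 0. Of all 32851 windows in the table, 17.2% held at least 1 match and 2.06% held 2 or more. A match is a run of letters and says nothing of binding in these cells.

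All levels are FPKM, the deposited unit, in which a gene's reads are divided by the length of its exons and by the depth of its library, here brought to a common scale over the 8 libraries by a trimmed mean of log ratios. Because FPKM is per length, levels of different genes can be set side by side. Depth implied by the deposited values was 12876470 to 20828217 reads per library. The labelled epithelia differed from the organoids in more than the members, and these facts stand beside every comparison with them. Summed over 12 fibroblast markers such as Dcn and Lum, the level was 1633 (bile duct) and 1484 (pancreatic duct) in the epithelia, against 0.169 to 0.572 in the organoids. Smooth muscle and pericyte markers (10 genes) summed to 2351 and 4008 in the epithelia and to at most 1.87 in an organoid. Endothelial markers (10 genes) summed to 529 and 938 against at most 2.53, and leukocyte markers (10 genes) to 892 and 546 against at most 4.28. Genes of pancreatic acinar cells (10 markers) summed to 20058 and 42248 against at most 8.56, which made 4.68% and 9.98% of all deposited FPKM of the bile duct and the pancreatic duct epithelium. The labelled duct identity was visible as well, since 10 duct markers such as Krt19 and Sox9 summed to 1158 and 344 in the epithelia and to between 1664 and 3538 in the organoids. Glial and neural markers (10 genes) summed to 91.9 and 118 against 33.3 to 52.8. In pancreatic duct organoid 2 a single gene made 42.5 of the 52.8, and 6 of the 10 were below 0.5. Mesothelial markers (8 genes) summed to 1060 and 249 against 1843 to 5339, a sum made up mostly by Krt8 and Msln. Mitochondrial transcripts made 24.9% and 18.8% of all deposited FPKM in the epithelia and 5.43% to 7.29% in the organoids, and the part of this difference in the comparisons was not tested. In such bulk material fewer cells of a type and less RNA per cell cannot be told apart.

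The 3 epithelial genes were higher in every organoid than in either epithelium, and more so against pancreatic duct epithelium. Cdh1 (ENSMUSG00000000303, chr8:106603351-106670246, plus strand, GRCm38) encodes E-cadherin. The epithelia measured 106 (bile duct) and 31.0 (pancreatic duct). Cultures 1, 2 and 3 from bile duct measured 500.4, 329 and 309, and cultures 1, 2 and 3 from pancreatic duct 449.5, 502 and 297; every later set of values keeps this order. The lowest organoid was thus above both epithelia, and the organoid groups overlapped over nearly their whole range, with 379 ± 105 (SD, n = 3) for bile duct and 416 ± 107 (SD, n = 3) for pancreatic duct. The organoid mean was 3.57 times the epithelium in bile duct and 13.4 times in pancreatic duct.

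Epcam (ENSMUSG00000045394, chr17:87635979-87651106, plus strand), whose product is a surface adhesion protein of simple epithelia and whose promoter is shown above, had the highest mean of the 10 genes in organoids. The epithelia measured 231 (bile duct) and 43.0 (pancreatic duct). Its level was 1039, 393 and 335 in cultures from bile duct, and 433, 785 and 373 in those from pancreatic duct. One culture of each organ stood above the others, bile duct organoid 1 and pancreatic duct organoid 2, and the groups overlapped (589 ± 391 and 531 ± 223, SD, n = 3 each). The organoid mean was 2.55 times the epithelium in bile duct, or 1.58 times without bile duct organoid 1, and 12.3 times in pancreatic duct.

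Esrp1 (ENSMUSG00000040728, chr4:11331933-11386783, minus strand), the epithelial splicing regulator, was the most even of the 3. The epithelia measured 11.1 (bile duct) and 3.24 (pancreatic duct). Its level was 32.2, 33.8 and 32.4 in cultures from bile duct, and 32.1, 32.0 and 31.2 in those from pancreatic duct. On this scale the groups did not overlap, by a narrow margin, and on the scaling of the 6 organoids alone they did. All 6 cultures lay within 1.08 times of each other, and 99.7% of the 12106 genes tested in organoids had a range over the cultures at least as wide on the log2 scale. The organoid mean was 2.96 times the epithelium in bile duct and 9.80 times in pancreatic duct. Of its exon bases 2.01% are shared with another annotated gene.

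The mesenchymal structural genes went the other way. Vim (ENSMUSG00000026728, chr2:13573927-13582826, plus strand), which encodes vimentin, was the most abundant member in both epithelia, at 369 in bile duct and 532 in pancreatic duct. Cultures from bile duct measured 2.45, 0.385 and 0.408, from 200, 38 and 38 reads. Those from pancreatic duct measured 1.03, 28.4 and 0.787, from 75, 2376 and 83 reads. Every organoid was below both epithelia, yet pancreatic duct organoid 2 alone stood 11.6 times above the next culture, bile duct organoid 1. Even that culture was 13.0 times below bile duct epithelium and 18.8 times below pancreatic duct epithelium. The means were 1.08 ± 1.19 (SD, n = 3) in bile duct organoids, 341 times below the epithelium, and 10.1 ± 15.9 (SD, n = 3) in pancreatic duct organoids, 52.9 times below it. Both ratios rest on 1 culture: without pancreatic duct organoid 2 the pancreatic duct mean was 587 times below its epithelium, which turns the order of the organs, and without bile duct organoid 1 the bile duct mean was 931 times below.

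Cdh2 (ENSMUSG00000024304, on chromosome 18) encodes N-cadherin and was weak in every library. The epithelia measured 2.60 (bile duct) and 3.97 (pancreatic duct). Cultures from bile duct measured 0.498, 0.131 and 0.171, and those from pancreatic duct 0.250, 1.92 and 0.151. Pancreatic duct organoid 2 again was highest, 3.87 times the next culture, which again was bile duct organoid 1, and it lay only 1.35 times below bile duct epithelium. Means were 9.77 times below the epithelium in bile duct and 5.12 times below it in pancreatic duct. Without pancreatic duct organoid 2 the latter was 19.8 times, again turning the order of the organs, and without bile duct organoid 1 the former was 17.3 times.

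The 5 transcription factors were expressed at low levels in the epithelia and were at or near 0 in the organoids. Zeb2 (ENSMUSG00000026872, chr2:44983632-45117395, minus strand) and Zeb1 (ENSMUSG00000024238, on chromosome 18) encode the zinc finger repressors of the Zeb family and were the strongest of the 5 in pancreatic duct epithelium. Zeb2 measured 8.35 and 14.9 in these epithelia, bile duct first, against 0.0146, 0.00723 and 0.00766 in cultures from bile duct and 0.00326, 0.125 and 0.00902 in cultures from pancreatic duct. In reads these organoid values were 5, 3, 3, 1, 44 and 4, so that 5 of the cultures rest on a handful of reads and pancreatic duct organoid 2 does not. Zeb1 measured 7.42 and 10.7 in the epithelia, against 0.362, 0.0143 and 0.0101 in cultures from bile duct and 0.0706, 0.840 and 0.0712 in cultures from pancreatic duct. Its organoid values rest on about 64, 3, 2, 11, 152 and 16 reads. Pancreatic duct organoid 2 was 2.32 times the next culture in Zeb1 and 8.57 times in Zeb2, and bile duct organoid 1 was the next in both. Of the exon bases 3.30% in Zeb2 and 1.93% in Zeb1 are shared with other annotated genes, and the counting is not stated to use strand.

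Snai1 and Snai2, of the Snail family, were at 0 to 6 reads in each culture. Snai1 (ENSMUSG00000042821, chr2:167538195-167542814, plus strand) measured 7.37 and 7.86 in the epithelia, from 145 and 182 reads. Its reads in organoids numbered 2, 1 and 1 in bile duct and 0, 2 and 1 in pancreatic duct, and the highest of these levels was 0.0718. The count of 0 in pancreatic duct organoid 1 allows a level of up to 0.120, taking 3 reads as the limit. Snai2 (ENSMUSG00000022676, chr16:14705852-14709395, plus strand), also known as Slug, had 3.16 and 4.55 in the epithelia, then 0.143, 0 and 0 in cultures from bile duct and 0.0320, 0.167 and 0 in cultures from pancreatic duct. The 3 counts of 0 allow levels of up to between 0.0668 and 0.0756. The 2 highest cultures were once more pancreatic duct organoid 2 and bile duct organoid 1, here on 6 and 5 reads.

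Twist1 (ENSMUSG00000035799, chr12:33957671-33959829, plus strand) was the weakest member in the epithelia, at 1.52 in bile duct (30 reads) and 1.42 in pancreatic duct (33 reads). Cultures from bile duct measured 0, 0.118 and 0.0939, and those from pancreatic duct 0, 0.0696 and 0.0276. The counts of 0 allow up to 0.107 and 0.120. Its order of cultures differed from that of Vim, since bile duct organoid 1 had no read and bile duct organoid 2 had the most, 4 reads. Counting error on these numbers is as large as the differences between them.

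**Figure D1:**
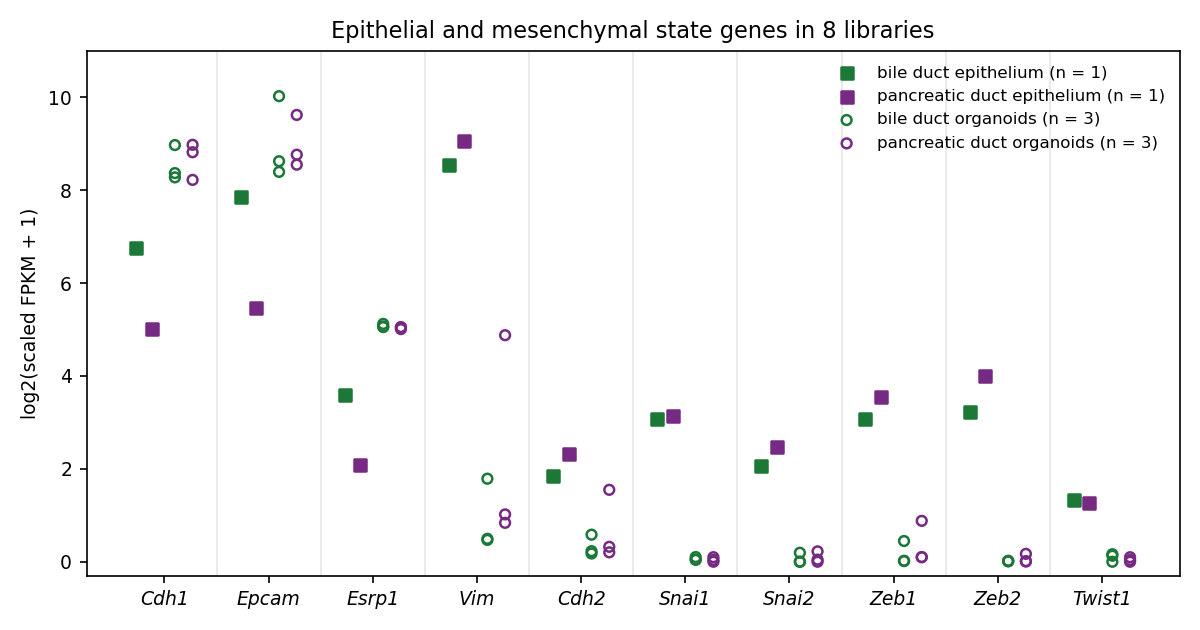
Level of the 10 genes in each of the 8 libraries, as log2(scaled FPKM + 1) on the vertical axis. Filled squares are the single epithelium libraries, open circles the 3 organoid cultures of each organ; the circles of Cdh1, Epcam and Esrp1 lie above both squares, those of the other 7 genes below them, and for Vim and Cdh2 pancreatic duct organoid 2 stands above the other cultures.

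The fit of all 6 organoids against the 2 epithelia, with the organ as a term, treats both epithelia as replicates of 1 state and assumes that the organs change alike. It was limma's moderated test on log2(FPKM + 1), adjusted by Benjamini-Hochberg over 14919 genes. In it 59.2% of all genes passed an adjusted p of 0.05, with 32.7% higher and 26.6% lower in organoids, so that most genes passed it and passing is not particular to these 10. The split depends on the filter on low values, with 48.3% higher and 19.1% lower at 10 FPKM and 15.7% higher and 22.8% lower with no filter. The median difference of all genes tested was 0.12 (log2, organoid minus epithelium), and the scaling itself moved organoids against epithelia by 0.13. Cdh1 rose by 2.73 (SE 0.44, limma adjusted p = 0.00150), Epcam by 2.34 (SE 0.65, limma adjusted p = 0.0176) and Esrp1 by 2.22 (SE 0.29, limma adjusted p = 0.000533). Epcam did not pass without the pancreatic duct epithelium, where the difference was 1.16 (limma adjusted p = 0.278). A fit with 1 epithelium assumes that this lone library varies like the organoids.

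Vim fell by 7.21 (SE 1.07, limma adjusted p = 0.000997) in the same fit, and by 7.86 (limma adjusted p = 2.63e-05) without pancreatic duct organoid 2. Cdh2 fell by 1.57 (SE 0.35, limma adjusted p = 0.00686). Its call was lost without the bile duct epithelium (limma adjusted p = 0.0676) and without the pancreatic duct epithelium (limma adjusted p = 0.0834), and without pancreatic duct organoid 2 the difference was -1.77 (limma adjusted p = 0.000411). Of the organoids only pancreatic duct organoid 2, at 1.92, reached 1 FPKM in Cdh2. Cdh2 thus met the filter of 1 FPKM in 2 libraries only with the help of the epithelia, where it was higher, which weakens its test. The 5 transcription factors reached this filter only through the epithelia and therefore could only be lower in organoids, so their tests add nothing to the levels above. Their differences were -3.57 for Zeb2, -3.05 for both Zeb1 and Snai1, -2.19 for Snai2 and -1.23 for Twist1, and a pseudocount of 1 compresses such values. The markers of fibroblasts, muscle, endothelium, leukocytes and acinar cells listed above moved with all of these differences, and their part in them was not tested.

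Taken organ by organ, each epithelium is 1 library and the change has no replicate check on that side, so it is given without a test. A gene was counted when the organoid mean lay at least 2-fold from the epithelium, on the log2(FPKM + 1) scale, with all 3 cultures on the same side. In bile duct 39.6% of 15227 genes were counted, 15.3% higher and 24.3% lower, and in pancreatic duct 41.1% of 14984 genes, 17.8% higher and 23.4% lower. The 3 epithelial genes were higher and the other 7 lower in both organs. The 5 transcription factors and Cdh2 had organoid means under 1 FPKM in both organs. They passed the filter only through the epithelium and so could only be counted as lower. For Cdh1 the change was 1.79 ± 0.38 in bile duct and 3.67 ± 0.40 in pancreatic duct (SD over 3 cultures), for Epcam 1.16 ± 0.88 and 3.52 ± 0.57, and for Esrp1 1.48 ± 0.04 and 2.95 ± 0.02. Without bile duct organoid 1 the change of Epcam in bile duct was 0.65, under 2-fold. For Vim it was -7.61 ± 0.75 and -6.81 ± 2.28, and for Cdh2 -1.52 ± 0.22 and -1.62 ± 0.74. Without pancreatic duct organoid 2 the pancreatic duct change was -8.13 for Vim and -2.05 for Cdh2, and without bile duct organoid 1 the bile duct change of Vim was -8.05, so no order of the organs is read from Vim. The epithelial genes thus had the larger change in pancreatic duct, whose epithelium started lower, and the organoids of both organs ended at like levels. Whether the change differed between organs was not tested, since the spread of the epithelia is unknown.

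**Figure D2:**
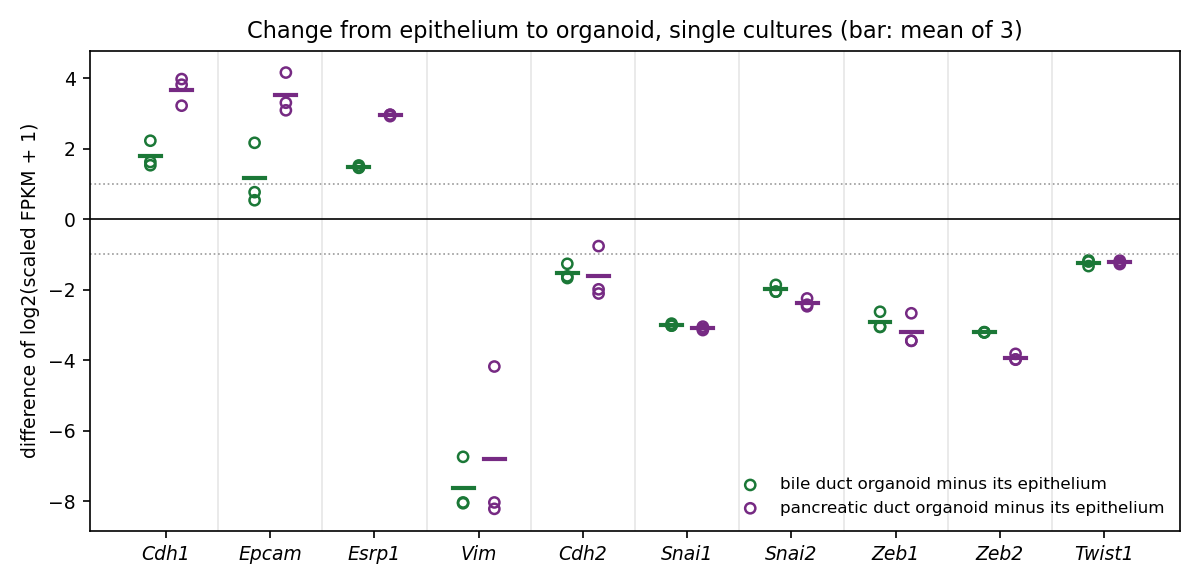
Change from the epithelium to each organoid of the same organ, as the difference of log2(scaled FPKM + 1) on the vertical axis, for the 10 genes. Circles are single cultures, bars the mean of 3, and dotted lines mark 2-fold; the epithelial genes lie above 0 with larger values in pancreatic duct, the other 7 genes below 0, and the Vim value of pancreatic duct organoid 2 is set apart from its group.

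Set against each other, with 1 library each and no test, the epithelia differed by more than 2-fold in the 3 epithelial genes and by less in the other 7. Among 15092 genes, 13.3% were at least 2-fold apart on the log2(FPKM + 1) scale, 8.79% with the higher level on the bile duct side and 4.49% on the pancreatic duct side. Cdh1 was 3.42 times, Epcam 5.37 times and Esrp1 3.42 times higher in bile duct epithelium. None of the other 7 members reached 2-fold, and 6 of these 7 were on the higher side in pancreatic duct, by 1.79 times for Zeb2, 1.52 times for Cdh2 and 1.44 times for Vim. The ratio of Cdh1 to Vim was 0.288 in the bile duct library and 0.0583 in the pancreatic duct library of epithelium. Of the marker sums given above, those of acinar, smooth muscle, endothelial and glial genes were larger in pancreatic duct epithelium, and those of fibroblast, leukocyte, mesothelial and duct genes in bile duct epithelium, and their part in these ratios was not tested. In organoids the ratio of Cdh1 to Vim was 204, 854 and 756 in bile duct and 438, 17.7 and 378 in pancreatic duct, so that Cdh1 exceeded Vim in every culture.

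Between bile duct and pancreatic duct organoids, the single comparison with replicates on both sides, limma called 0 of 12106 genes at an adjusted p of 0.05 with or without the trend. Without adjustment 310 genes (2.56%) had a p under 0.05, and in 6.68% of genes the groups did not overlap. Only 4 of the 10 members reached 1 FPKM in at least 3 organoids and were tested: Cdh1, Epcam, Esrp1 and Vim. The difference of bile duct minus pancreatic duct was -0.15 (SE 0.27, 95% interval -0.80 to 0.51) for Cdh1 and 0.02 (SE 0.49, -1.17 to 1.22) for Epcam. It was 0.03 (SE 0.09, -0.18 to 0.25) for Esrp1 and -1.34 (SE 1.12, -4.06 to 1.38) for Vim, and all 4 had a limma adjusted p of 1.00. The interval is narrow for Esrp1 alone, and for Vim it leaves room for differences of several fold in either direction. Without pancreatic duct organoid 2 the Vim difference was -0.02 (limma adjusted p = 1.00).

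Of the members, Vim had by far the widest range between single cultures on the log2 scale. Over the 6 organoids Vim ranged over 4.41 on the log2(FPKM + 1) scale, and 37 of the 12106 tested genes (0.306%) had a range as wide. Among 2389 genes with a mean within 0.5 of that of Vim, 5 were as wide, Vim included. Without pancreatic duct organoid 2 its range was 1.32. Epcam ranged over 1.63 and Cdh1 over 0.76, ranges matched or exceeded by 7.93% and 33.5% of the tested genes. Bile duct organoid 1 and pancreatic duct organoids 1 and 2 were the 3 highest cultures in Cdh1 and in Epcam, and also the 3 highest in Vim and in Cdh2. Esrp1 was nearly even over the 6 cultures, at 31.2 to 33.8, and most of the differences between them lie within counting error. Its order, highest in bile duct organoids 2 and 3, and its correlation with Cdh1 (r = -0.10) therefore say little. Over the 6 cultures Vim correlated with Cdh2 at r = 0.997 (rho 0.943) and with Zeb1 at r = 0.978 (rho 0.886), values that rest largely on pancreatic duct organoid 2 and are a description of these libraries.

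The same 3 cultures were the lowest of the 6 in the proliferation gene Mki67 and in Xist, the RNA that coats the inactive X chromosome. Mki67, named after its values were seen, measured 24.5, 64.2 and 61.8 in cultures from bile duct and 31.2, 18.4 and 53.2 in cultures from pancreatic duct, which is the order of Vim reversed. Xist measured 20.4, 85.2 and 83.5, and 23.7, 20.9 and 76.1. The part of growth, or of the source of the cells, in the spread of Vim was not tested. In pancreatic duct organoid 2 the 12 fibroblast markers summed to 0.519, all were below 0.5, the highest was Col15a1 at 0.312, and 5 were at 0, Dcn and Lum among them. Of 19 matrix and adhesion genes of mesenchymal cells, 9 were highest in pancreatic duct organoid 2, but 13 of the 19 were below 0.5 there. The share of all genes that were highest in this culture was not counted, so the 9 have no measure beside them. Col6a1 was at 8.33 there against at most 0.690 in the other cultures, and Sparc at 3.07 against at most 1.64. The interstitial collagen gene Col1a1 was at 0.173, below the 0.884 of pancreatic duct organoid 3. These genes were chosen after their values were seen, and the part of stromal cells in the Vim level of this culture was not tested.

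Genes most like Vim over the 6 organoids were named by the highest Pearson correlation of log2(FPKM + 1) among 1806 protein-coding genes with a range of at least 1. The first was Il11, a cytokine of the interleukin 6 family (r = 0.993, rho 1). It measured 3.64, 0.215 and 0.380 in cultures from bile duct and 1.13, 31.8 and 0.514 in cultures from pancreatic duct, in the same order of cultures as Vim. In the epithelia, where Vim was high, Il11 was at 0.450 and 0.244. Ak1 (r = 0.973), Sat1 (r = 0.971), Kcnh2 (r = 0.970) and Fjx1 (r = 0.970) followed. Without the 2 cultures farthest from the median of Vim, pancreatic duct organoid 2 and bile duct organoid 1, r over the remaining 4 was 0.923 for Il11 and 0.927 for Ak1 but -0.16 for Fjx1.

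Listed genes that were likewise highest in pancreatic duct organoid 2 and bile duct organoid 1 included the matrix protein fibronectin (Fn1), with 172, 3.16 and 4.03 in bile duct organoids and 22.3, 188 and 10.9 in pancreatic duct organoids, against 61.9 and 195 in the epithelia. In these cultures alone, at 188 and 172, Fn1 lay within the range of the epithelia, while Vim lay below both. Tenascin C (Tnc) measured 4.98, 0.0186 and 0.0393 in bile duct organoids and 0.150, 4.66 and 0.0347 in pancreatic duct organoids. The filament gene nestin (Nes) measured 6.85, 0.277 and 0.421, and 1.84, 7.90 and 0.869. The collagenase gene Mmp13 measured 18.3, 0.360 and 0.286, and 2.41, 78.8 and 1.75. Inhba, a subunit of activin, measured 23.6, 1.37 and 2.03, and 8.21, 37.0 and 3.18. The order of the pair was reversed in Tnc, and that of the other cultures varied between the genes. These 5 were chosen after their values were seen.

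**Figure D3:**
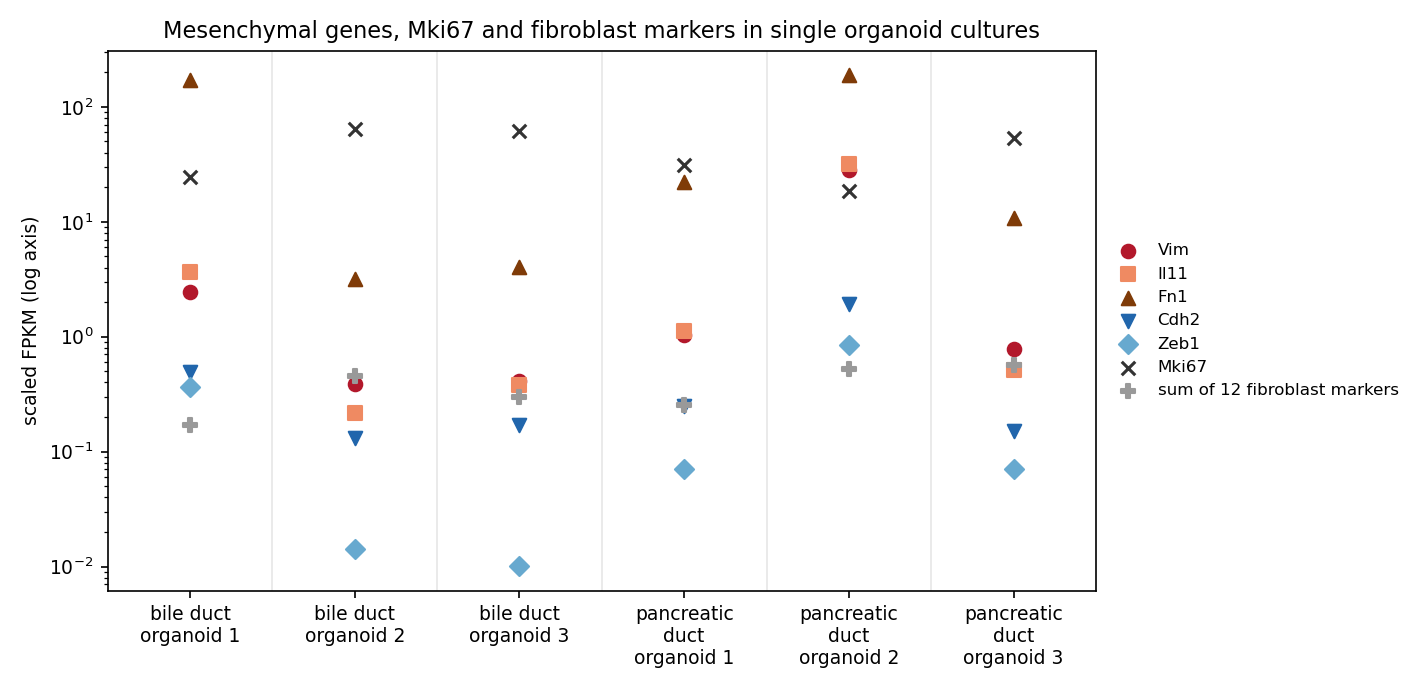
Scaled FPKM on a log axis in each of the 6 organoid cultures for Vim, Il11, Fn1, Cdh2, Zeb1, Mki67 and the sum of 12 fibroblast markers. Vim, Il11, Fn1, Cdh2 and Zeb1 are highest in pancreatic duct organoid 2 and next in bile duct organoid 1, Mki67 is lowest in these, and the fibroblast sum stays between 0.169 and 0.572 in all 6.

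Over the 8 libraries, the genes most like Cdh1 among 7396 compared were Fam83g (r = 0.997), Myo5b (r = 0.996), Dhx32 (r = 0.994), the kinase gene Src (r = 0.993) and St14 (r = 0.993), which encodes the membrane protease matriptase. St14 measured 13.6 and 4.43 in the epithelia, bile duct first, and between 42.5 and 62.6 in the organoids. All 5 followed the same order of groups as Cdh1: pancreatic duct epithelium lowest, bile duct epithelium next, organoids above.

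Other regulators of the epithelial programme rose with the 3 epithelial members. Of 20 listed genes 18 were tested, 15 rose, 0 fell and 3 did not pass, where 32.7% of all genes rose and 26.6% fell, with a median difference of 2.02 beside 0.12 for all genes. Among the 15, at least Grhl1 and Ovol2 were under 1 FPKM as deposited in both epithelia. They passed the filter only through the organoids and could only be higher. Esrp2, the partner of Esrp1 in splicing, rose by 2.81 (SE 0.27, limma adjusted p = 0.000113), from 6.05 and 2.19 in the epithelia to between 25.9 and 34.9 in organoids, and the transcription factor gene Klf5 rose by 2.72. Grhl2, a factor that maintains Cdh1 expression, measured 3.26 and 2.25 in the epithelia and between 8.86 and 13.3 in organoids. The 3 that did not pass were Ovol1 (-0.14), Elf3 (-0.41) and Prss8 (0.50). Elf3 was highest of all libraries in bile duct epithelium, at 87.2.

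Junction genes were mostly higher in organoids. Of 13 adherens junction genes, all tested, 10 rose, 1 fell and 2 did not pass, with a median of 1.13, beside the same 32.7% higher and 26.6% lower among all genes. Cdh17, a cadherin of gut and liver epithelium, rose by 2.80 (SE 0.92, limma adjusted p = 0.0336). This rested on the pancreatic duct, with 0.876 in its epithelium, since bile duct epithelium had 54.8 and bile duct organoids 92.3, 71.8 and 85.8. Nectin4 rose by 1.46 and the P-cadherin gene Cdh3 by 1.37, while Nectin3 fell by 1.23. Of 8 desmosome genes, all tested, 7 rose and 1, Dsc2, did not pass, with a median of 2.02, against the same shares of all genes. The plakophilin gene Pkp1 rose by 4.18 (SE 0.44, limma adjusted p = 0.000190), from 1.2 and 0.112 in the epithelia to between 12.2 and 45.1 in organoids, the desmoplakin gene Dsp by 2.64 and the periplakin gene Ppl by 2.26. With 1 epithelium under 1 FPKM, Pkp1 met the filter of 2 libraries only with the help of the organoids, where it was higher.

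Transcription factors of the transition outside the 10 genes did not move together. Of 12 listed, 8 were tested, 3 rose and 5 fell, beside 32.7% higher and 26.6% lower among all genes. Of the 5 that fell, 3 (Prrx1, Prrx2 and Foxc2) were tested only through the epithelia and could only be lower. Snai3, the third member of the Snail family, rose by 1.75 (SE 0.27, limma adjusted p = 0.00115), from 0.607 and 0.129 in the epithelia to 3.64, 4.52 and 5.48 in bile duct organoids and 4.63, 2.12 and 1.96 in pancreatic duct organoids. Snai3 was thus the only Snail family gene above 1 FPKM in the organoids. Both epithelia were under 1 FPKM, so Snai3 passed the filter only through the organoids and could only be higher. Its test adds nothing to these levels. Tcf3, whose product E2A partners Twist proteins, rose by 1.24 and Zfp281 by 0.56. Prrx1 went from 8.25 and 10.1 to 0 in all 6 organoids, where a count of 0 allows at most 0.0122 to 0.0176 a culture. Foxc2 went from 2.39 and 8.56 to at most 0.811, and Foxc1 fell by 1.95.

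Matrix and cytoskeletal genes of mesenchymal cells were high in the epithelia, and their sums in each library say more than counts of calls, because 12 of the 18 tested genes of the matrix list passed the filter only through the epithelia. The 19 genes summed to 1682 (bile duct) and 2627 (pancreatic duct) in the epithelia. They summed to 238, 43.6 and 53.1 in bile duct organoids and to 75.9, 393 and 41.4 in pancreatic duct organoids. Sparc fell by 8.26 (limma adjusted p = 9.27e-06). Col3a1 went from 277 and 474 in the epithelia to at most 0.622, and Col1a1 from 233 and 235 to at most 0.884, both tested only through the epithelia. By contrast, Fn1 (-2.21, SE 1.61, limma adjusted p = 0.272) and Tnc (-2.11) did not pass. S100a4 shares 51.7% of its exon bases with another gene and was listed at 0 in both epithelia, so its values are uncertain. Among 8 relatives of vimentin 4 were tested, and Des and Prph were tested only through the epithelia, so that they could only be lower. The desmin gene Des went from 143 and 121 to at most 0.0604 and Prph from 1.77 and 3.08 to at most 0.0607. Synm fell by 3.77, and Nes did not pass (-1.70, limma adjusted p = 0.118).

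Genes of the TGF-beta pathway, a main inducer of the transition, passed the test at about the rate of all genes. Of 15, all tested, 3 rose, 6 fell and 6 did not pass, with a median of -0.42, beside 32.7% higher and 26.6% lower among all genes. Of the 6 that fell, Tgfbi and Tgfbr3 were tested only through the epithelia and could only be lower. The signal transducers Smad3, Smad2 and Smad4 rose by 1.15, 0.67 and 0.60. The target gene Tgfbi measured 77.0 and 48.0 in the epithelia and at most 0.0539 in organoids, and the co-receptor gene Tgfbr3 25.9 and 34.7 against at most 0.296. Ltbp1 fell by 2.11. Of 14 genes of partial transition states, in which epithelial cells take on migratory features, 13 were tested, 6 rose, 2 fell and 5 did not pass, with a median of 1.16. In all, the share of this list that passed was again near the 59.2% of all genes. The laminin chain gene Lamb3 rose by 3.17 and the hyaluronan receptor gene Cd44 rose by 3.00. Serpine2 fell by 2.60 and L1cam fell by 1.62. Cd44 measured 438, 172 and 153 in bile duct organoids and 227, 388 and 185 in pancreatic duct organoids, highest in the same 3 cultures as Cdh1 and Vim.

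**Figure D4:**
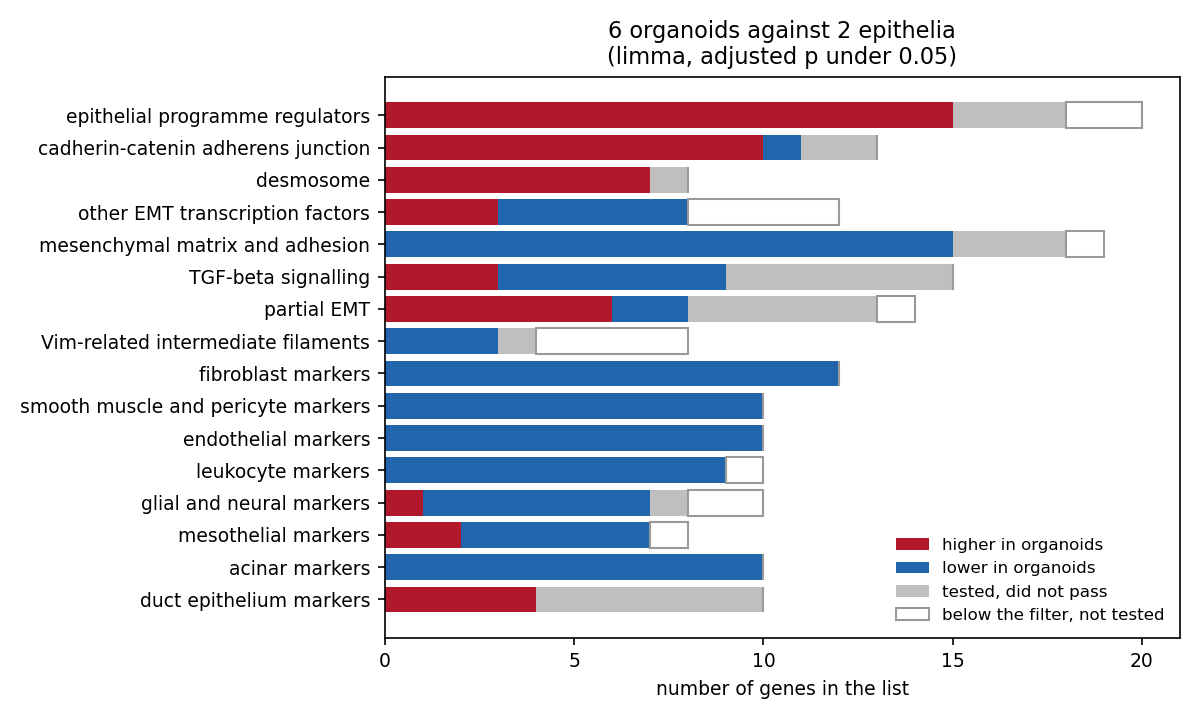
Number of genes in each list (horizontal axis) that were higher, lower or not past the threshold in 6 organoids against 2 epithelia in the limma fit, with untested genes left white. Epithelial regulators, junction and desmosome genes are mostly on the higher side (15 of 20, 10 of 13 and 7 of 8), and the fibroblast, smooth muscle, endothelial and acinar markers are all on the lower side, where 12 of 12, 9 of 10, 8 of 10 and 8 of 10 of them were tested only through the epithelia and could only fall there.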

How the data were processed

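The 8 mouse libraries were built with NEBNext Ultra reagents from mRNA captured on poly-T beads, according to the labels. The submitters' processing notes name Bowtie2 2.2.3, HISAT2 2.1.0, TopHat2 and HTSeq 0.6.0, with no role given, and strand use is not stated. The authors deposited FPKM for 31228 genes, each library in its own column, and 0 columns of samples were unused. The unit was read from the values: FPKM times merged exon length in GENCODE M21 came out as whole reads, within 0.05, in all 8 libraries for 28268 of 31099 genes (90.9%), and 28575 genes had identical coordinates there, which gives the build GRCm38. Read numbers are whole for 7 members. Those of Epcam, Snai2 and Zeb1 are approximate, and intervals or limits from reads cover counting error only.

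The members and lists were chosen with earlier results of these data known. Groups come from the labels. FPKM were scaled by an unweighted trimmed mean of log ratios (30% of ratios and 5% of levels trimmed), over 8 libraries for comparisons with an epithelium and all printed levels, and over the 6 organoids for the organoid test. Genes with at least 1 FPKM in 3 organoids, or in 2 of 8 libraries, were tested on log2(FPKM + 1) with limma 3.58.1 (intensity trend) in R 4.3.3, adjusted by Benjamini-Hochberg, threshold 0.05. The test was tried on simulated data. All members are named, and of each list at most 3 genes a direction with the widest called difference, unless a sentence says otherwise. Genes named outside this rule (Grhl1, Grhl2, Ovol1, Ovol2, Elf3, Prss8, Dsc2, Fn1, Tnc, S100a4, Nes, Mmp13, Inhba, Col6a1, Col15a1, Prrx2, Mki67, Xist) were chosen after their values were seen. Some listed genes that met the rule are not reported here. Alternatives varied scaling, pseudocount, filter, trend, organ term, replicate block and the libraries used. Python 3.11.15 with pandas 2.3.3 and matplotlib 3.10.9 did the rest.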

Additional observations from a re-analysis of the deposited data

How the results depend on the processing

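Precision is limited by 1 library per epithelium, by 3 cultures per organ and, for Snai1, Snai2 and Twist1 in organoids, by at most 6 reads a culture. All 10 members kept the direction of their difference between organoids and epithelia under every alternative that tested them, and the calls lost there are those of Epcam and Cdh2. At 10 FPKM Cdh2 and the 5 transcription factors were not tested. For the 5 transcription factors the filter of 1 FPKM allowed only the lower direction, so that keeping it adds nothing. By the 2-fold rule, Epcam in bile duct fell to 0.65 without bile duct organoid 1. A filter at 10 FPKM, which tests fewer genes, gave 4694 called genes (3365 higher, 1329 lower) in place of 8839 (4875 higher, 3964 lower) for organoids against epithelia, and 2956 in place of 6023 (bile duct), 3134 in place of 6160 (pancreatic duct) and 833 in place of 2005 (between the epithelia) for genes 2-fold apart. With no filter 11509 genes were called there, 4692 higher and 6817 lower. Leaving out 1 library at a time gave 6590 to 9201 called genes for organoids against epithelia. Between the organoid groups it gave 0 to 11, the 11 without pancreatic duct organoid 3. The range of Vim over organoids was then 1.32 to 4.41, the lowest without pancreatic duct organoid 2.

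Between organoid groups, differences near 0 changed sign when 1 culture was left out: Cdh1 ran from -0.37 to 0.0077, reversed without pancreatic duct organoid 2, and Epcam from -0.48 to 0.35, reversed to -0.48 without bile duct organoid 1, -0.09 without pancreatic duct organoid 1 and -0.19 without pancreatic duct organoid 3, none past the threshold. The cause was not tested. Whether the replicate numbers of the titles pair the cultures is not known. Deviations from the group means correlated at -0.10, -0.44 and 0.48 for numbers 1, 2 and 3. These values cannot decide it, since the 3 deviations of a gene in a group sum to 0. The fit with the number as a replicate block also called 0 genes. A pseudocount of 0.1 widened the changes of weak genes, as that of Zeb2 in bile duct from -3.21 to -6.27, and the range of Vim to 5.87. Of the values for single members, 315 kept their direction and, where tested, their side of the threshold, or, where untested, stayed within 1 SD of the cultures (between the epithelia, within their counting error). A further 23 untested values moved by more than that, 3 lost the call and 4 changed sign. Size was not judged for tested values, and at a pseudocount of 0.1 the difference of Snai1 between organoids and epithelia went from -3.05 to -5.82 and that of Zeb2 from -3.57 to -6.52.

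The call of Cdh2 was lost at -1.62 without the bile duct epithelium and at -1.52 without the pancreatic duct epithelium, and that of Epcam at 1.16 without the pancreatic duct epithelium.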
